A study of Mus musculus with 12 samples.

Results

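Livers of Ire1α null mice were compared with livers of control mice after tunicamycin, an inhibitor of N-linked glycosylation that leaves unfolded protein in the endoplasmic reticulum (ER). The comparison took the 3 arrays titled Fe-CRE+Tm, labelled null, against the 3 titled Fe+CRE+Tm, labelled control, which are 6 of the 12 arrays of the series. The other 6, titled Fe-CRE+ and Fe+CRE+, are null and control livers that received vehicle. All mice were C57Bl/6J and 3 months old, and both genotypes carry CRE in their titles. Each mouse received, intraperitoneally, 2 µg of tunicamycin per g of its weight or the vehicle, 150 µM dextrose, and the livers were collected after 8 h. The labels do not state the Cre driver, the cells it acts in or the deleted stretch of the gene. Each group held 3 samples that the labels call biological replicates. Levels are quantile normalized log2 values of Affymetrix probe sets, 1 probe set per gene. A difference is null minus control on that log2 scale, 3 arrays against 3, ± its moderated standard error from limma. That error rests on the spread within all 4 groups of the 12 arrays, vehicle included, and can exceed the spread of the 6 tunicamycin arrays. A gene was called higher or lower in null livers at an adjusted p under 0.05 (limma, Benjamini-Hochberg over 14568 genes).

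IRE1α, the product of Ern1, spans the ER membrane and carries both a kinase and an RNase domain. When unfolded protein builds up, its RNase cuts an intron out of the Xbp1 transcript, and the protein made from the spliced form, XBP1s, activates genes of protein entry into the ER, folding, degradation and export. The same RNase can also cut other transcripts. PERK, which acts through ATF4 and CHOP, and ATF6 are the other sensors of ER stress. The liver secretes large amounts of protein and depends on this machinery.

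The array of null tunicamycin replicate 2 carried kidney transcripts. Umod, the uromodulin of the kidney's thick ascending limb, read 13.1 there and at most 6.55 on the other 11 arrays, and Kap, a kidney androgen-regulated gene, read 12.8 against at most 5.98. In all 18 of 24 tested kidney tubule markers lay more than 1 above the other arrays, and 322 genes did so over the whole table. The summed normalized level of 28 kidney markers was 72858 on that array and 15015 to 16769 on the others, and the defining hepatocyte markers were present in all groups (summed level 119571 to 124240). One measure of RNA quality also separated the groups. The 5′ to 3′ intensity ratio of the Gapdh control probe sets averaged 0.401 ± 0.0327 (SD, n = 3) in null and 0.556 ± 0.0289 in control tunicamycin arrays, and the groups did not overlap (exact permutation test on both sides, p = 0.1, the smallest that 3 against 3 allows). The actin ratio differed by -0.0190 (exact p = 0.8).

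Ern1, the deleted gene, was not called: the brightest of 5 Ern1 probe sets had intensities of 3697, 2950 and 3513 in control and 4793, 2147 and 3894 in null livers, a difference of 0.10 ± 0.24 (adjusted p = 0.935 over 34945 probe sets), and none of the other 4 was called. As the deleted stretch is not known here, this does not check the labels.

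In null livers under tunicamycin 471 genes were lower (3.23% of 14568) and 110 were higher (0.755%), together 581 (3.99%). The groups did not overlap for any of the 581, against 11.5% of all genes with all 3 null arrays below the control arrays and 10.2% above. At least 2-fold changes were far more frequent downward, with 253 genes (1.74%) against 40 (0.275%). No called gene was 4-fold higher and 25 were 4-fold lower. The median difference over all genes was 0.02. Without stress, by contrast, limma called 0 of the 14568 genes between the same genotypes, with 597 at an unadjusted p under 0.05 and a smallest adjusted p of 0.973, and under the alternative settings at most 1 gene was called. The plot of both genotype differences shows this shape.

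**Figure D1:**
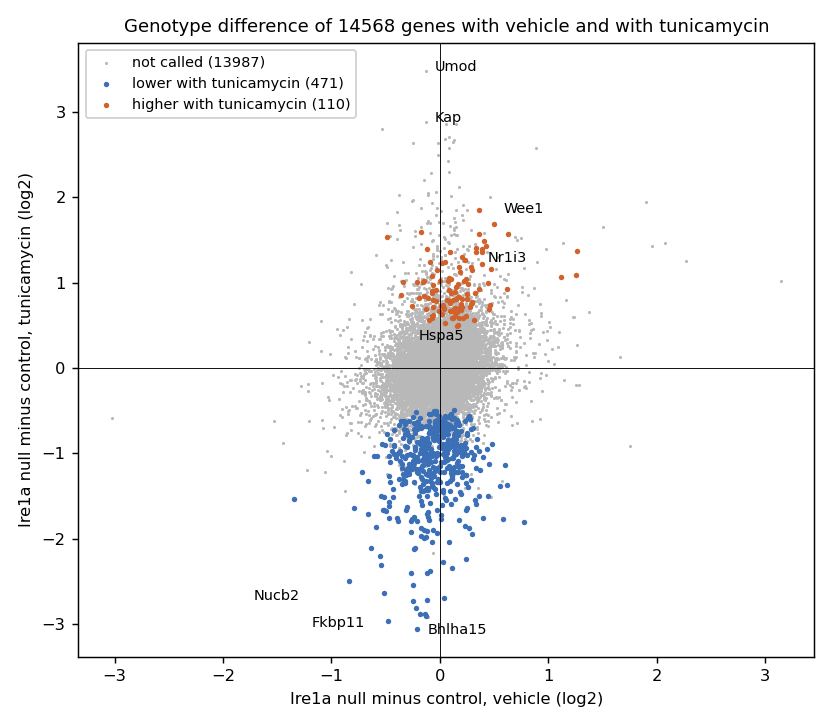
Null minus control difference of each of 14568 genes (log2) with vehicle on the horizontal axis and with tunicamycin on the vertical axis; blue points are the 471 genes lower and orange points the 110 genes higher under tunicamycin, grey points were not called. The blue cloud reaches down to Bhlha15 at -3.06 while lying near 0 on the vehicle axis; Umod and Kap, the kidney transcripts of 1 array, lie at 3.48 and 2.88 and were not called.

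Leaving out the array with kidney transcripts, null tunicamycin replicate 2, gave 527 calls among 14531 genes (3.63%), 406 lower (2.79%) and 121 higher (0.833%), of which 412 were among the 581. None of the 322 genes raised on that array was called with all arrays, but 1 array far above the others widens the spread and makes a call unlikely. That count does not show how kidney RNA bears on the called genes. The sign was the same for 580 of the 581. As the groups did not overlap for any of these genes, leaving out an array could hardly change a sign. The exception was Wnt5a, named after its values were seen, at -1.23 with and 0.03 without the array, where another of its 4 dim probe sets was the brightest and so stood for the gene. With the Gapdh ratio as a covariate limma called 432 genes lower and 74 higher. As that ratio separated null from control tunicamycin arrays, this fit cannot fully separate RNA quality from genotype.

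**Figure D2:**
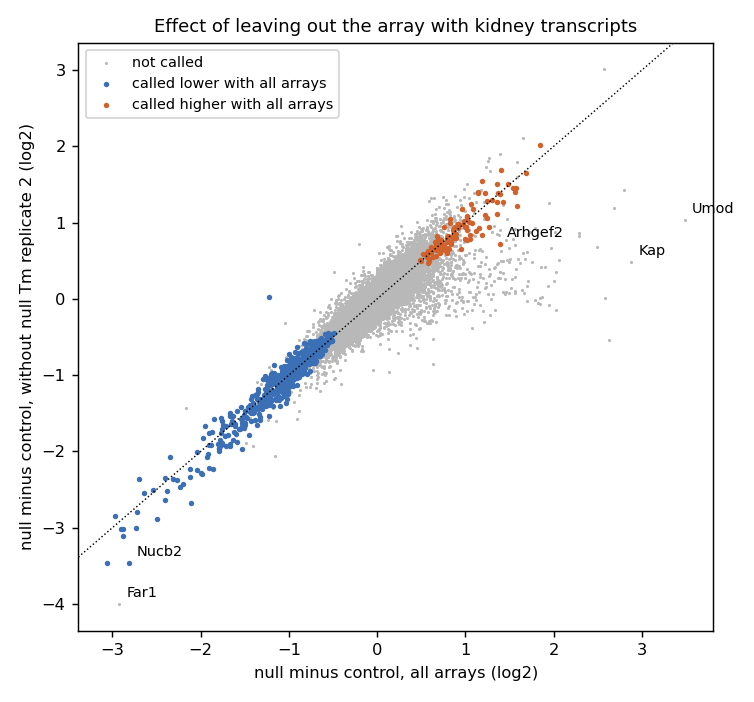
Null minus control difference under tunicamycin (log2) with all arrays on the horizontal axis and without null tunicamycin replicate 2 on the vertical axis; each point is a gene, blue and orange points were called lower and higher with all arrays, and the dotted line marks equal values. Of the called genes Wnt5a, at -1.23 and 0.03, changes sign and Arhgef2 moves from 1.39 to 0.72; of the genes not called Umod moves from 3.48 to 1.04 and Far1 from -2.92 to -4.00.

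Among the genes with the most negative differences were secretory and ER genes and genes on none of the secretory lists. Bhlha15, which encodes MIST1, a factor of professional secretory cells, read 10.21, 10.20 and 8.90 in control and 6.18, 7.49 and 6.47 in null livers, and with vehicle stayed between 4.43 and 5.03 in both genotypes. All null arrays lay below the lowest control array, and the difference was -3.06 ± 0.37 (8.33-fold, limma adjusted p = 6.6e-04). Fkbp11, an ER prolyl isomerase, was 7.84-fold lower (-2.97 ± 0.32), at 11.59, 11.97 and 11.29 against 8.50, 8.40 and 9.05. That value rests on 1 probe set: its other 2 probe sets reached a deposited intensity of at most 68.7, against 4384 for the one used, and with the _s_at and _x_at types left out Fkbp11 differed by 0.28 (adjusted p = 0.819).

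Nucb2, which encodes a calcium-binding Golgi protein, read 11.98, 11.88 and 11.29 in control and 7.93, 10.22 and 8.58 in null livers (-2.81 ± 0.45). Its highest null value was on the array with kidney transcripts, and without it the difference was -3.46. Far1, the fatty acyl-CoA reductase of ether lipid synthesis, showed the same order, with 10.88 on that array against 6.97 and 8.31, and did not pass the test with all arrays (-2.92, adjusted p = 0.064). It passed without that array (-4.00, adjusted p = 0.0016), without control replicate 3 (-3.56, adjusted p = 0.0393), and with array weights, array medians centred or the values as deposited. The part of the kidney RNA in these 2 values was not tested.

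Several of these genes lie outside the secretory lists. Tspyl2, a nucleosome assembly protein, read 10.27, 10.78 and 10.50 against 7.73, 7.96 and 7.71 (-2.72 ± 0.15, adjusted p = 4.5e-06), and Gnat2, the cone transducin subunit, 8.96, 9.26 and 9.18 against 6.63, 6.50 and 6.65 (-2.54 ± 0.14, adjusted p = 4.5e-06). Both sets of arrays were far apart compared with their own spread. Zfp9, a zinc finger gene, differed by -2.91 ± 0.20, Nde1, a dynein regulator, by -2.88 ± 0.21, and Ube2c, the ubiquitin-conjugating enzyme of the anaphase-promoting complex, by -2.88 ± 0.42. Guca1a and Hapln4, a guanylate cyclase activator and a hyaluronan link protein, differed by -2.70 and -2.64, and Ccdc149, Sgsm1 and 6430548M08Rik by -2.73, -2.40 and -2.40. Each of these genes was called with limma and was also called without null replicate 2.

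The promoter windows of the lower genes were read from RefSeq (GRCm38.p6), each holding 250 bases before and 50 after a gene's start. They are printed 5′ to 3′ on the gene's strand in lower case, with capitals where a motif of the stress response matched: the core bound by XBP1, ACGTGGC, the unfolded protein response element (UPRE), TGACGTGG, and the ER stress response element (ERSE), made of CCAAT and CCACG with 9 bases between them. UPRE and core overlap, so 1 site can hold both. The genes printed were chosen as examples, and for each the window with the most motif matches is shown. The first 4 windows belong to genes that were lower. All of these 4 hold the core, which 61 of the 386 lower genes with a window did (15.8%). Fkbp11 (chr15:98727578-98727877, minus strand) has the core after its start, at positions 22 to 28, and Nucb2 (chr7:116504119-116504418, plus strand) has it on the opposite strand at -150 to -144. In Txndc5 (chr13:38527865-38528164, minus strand) a UPRE at -138 to -131 runs into the core, and in Sec24d (chr3:123267246-123267545, plus strand) the same pair starts at -26. The last 2 hold an ERSE: Syvn1 (chr19:6046326-6046625, plus strand), which was lower, at -44 to -26, and Hspa5 (chr2:34771840-34772139, plus strand), which was not called, at -65 to -47.
Fkbp11: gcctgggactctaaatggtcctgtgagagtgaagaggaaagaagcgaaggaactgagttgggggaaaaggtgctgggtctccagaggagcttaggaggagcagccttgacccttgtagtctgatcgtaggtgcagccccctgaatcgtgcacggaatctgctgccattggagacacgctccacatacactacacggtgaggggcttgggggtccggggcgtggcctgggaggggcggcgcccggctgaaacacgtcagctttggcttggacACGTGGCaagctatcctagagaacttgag
Nucb2: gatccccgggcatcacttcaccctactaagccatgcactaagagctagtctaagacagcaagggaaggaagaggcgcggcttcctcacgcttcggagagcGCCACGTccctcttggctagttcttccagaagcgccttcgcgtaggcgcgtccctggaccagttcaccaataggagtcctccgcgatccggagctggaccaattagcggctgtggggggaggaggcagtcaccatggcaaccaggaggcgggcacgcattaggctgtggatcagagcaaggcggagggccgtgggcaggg
Txndc5: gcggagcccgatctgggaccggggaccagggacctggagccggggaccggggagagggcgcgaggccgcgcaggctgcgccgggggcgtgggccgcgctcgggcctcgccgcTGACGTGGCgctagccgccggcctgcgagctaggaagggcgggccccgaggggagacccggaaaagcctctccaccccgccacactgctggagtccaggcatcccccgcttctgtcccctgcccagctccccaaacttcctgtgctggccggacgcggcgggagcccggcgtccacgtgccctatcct
Sec24d: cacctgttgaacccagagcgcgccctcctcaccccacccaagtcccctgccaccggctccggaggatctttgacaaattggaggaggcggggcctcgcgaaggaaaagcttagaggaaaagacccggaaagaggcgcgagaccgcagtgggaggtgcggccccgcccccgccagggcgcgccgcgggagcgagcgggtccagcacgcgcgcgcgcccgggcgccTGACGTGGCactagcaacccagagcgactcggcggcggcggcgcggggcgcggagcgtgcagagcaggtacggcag
Syvn1: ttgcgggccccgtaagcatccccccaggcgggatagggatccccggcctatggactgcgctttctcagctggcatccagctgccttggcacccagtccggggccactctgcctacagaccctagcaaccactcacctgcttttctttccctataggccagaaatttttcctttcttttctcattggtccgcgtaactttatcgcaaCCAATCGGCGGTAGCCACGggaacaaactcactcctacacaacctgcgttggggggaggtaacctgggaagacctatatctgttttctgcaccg
Hspa5: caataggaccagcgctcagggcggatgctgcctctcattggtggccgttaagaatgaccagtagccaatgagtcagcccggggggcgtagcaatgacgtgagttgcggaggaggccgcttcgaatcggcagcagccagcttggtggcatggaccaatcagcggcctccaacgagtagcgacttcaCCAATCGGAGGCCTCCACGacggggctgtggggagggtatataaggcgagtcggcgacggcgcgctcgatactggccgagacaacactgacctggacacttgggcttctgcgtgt

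Counted over both strands, the XBP1 core was present in 63 of 489 windows of the lower genes (12.9%), in 5 of 124 windows of the higher genes (4.03%), in 3.66% of the 14824 windows of all genes tested and in 2.58% of all 32851 windows. On the gene strand alone the shares were 6.54% of the windows of lower genes and 1.92% of those of all genes tested. The UPRE was in 19 windows of lower genes (3.89%) against 0.992% over all genes tested. ERSE-II, ATTGG and CCACG with 1 base between them, was in only 3 windows of lower genes (0.613%) against 8 over all genes tested (0.054%). On the gene strand alone these ERSE-II shares were 0.204% and 0.0337%. ERSE was in 1 window of lower genes (0.204%) against 0.115%. For the cyclic AMP response element, TGACGTCA, the share was 2.04% against 2.66%, and for the amino acid response element, TGATGNAAT, 0.204% (1 window) against 0.54%. A window was found for 386 of the 471 lower and 89 of the 110 higher genes, and a match is a description of letters, not of a bound site.

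**Figure D3:**
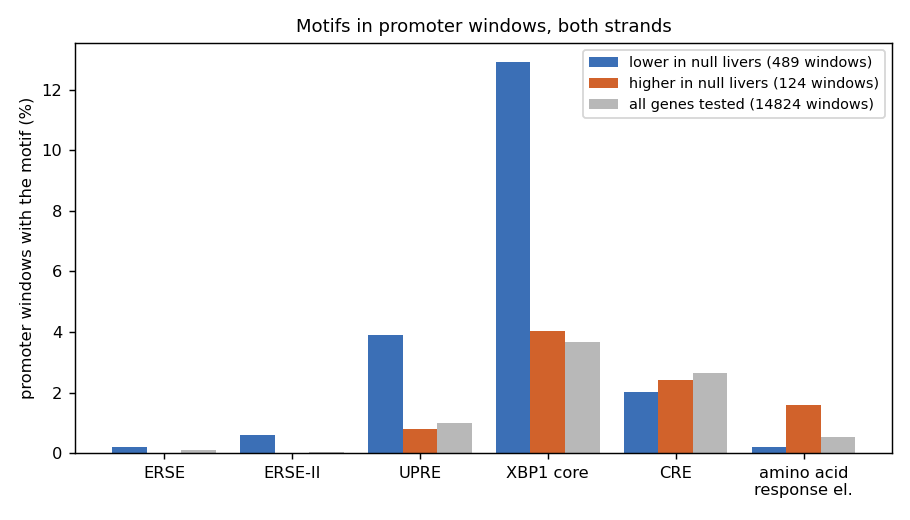
Percent of RefSeq promoter windows (250 bases before to 50 after the start) that hold each of 6 named motifs on either strand, for genes lower (489 windows) and higher (124 windows) in null livers under tunicamycin and for all genes tested (14824 windows). The bar for the XBP1 core is 12.9% for lower genes against 4.03% and 3.66%.

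Among the sensors and their factors, 3 of 11 tested genes were lower (27.3%, against 3.23% of all genes) and 1 was higher (9.09%, against 0.755%). Their median was -0.05 (0.04 without null replicate 2). Atf6b, a paralog of ATF6, read 7.49, 7.88 and 7.47 in control and 6.54, 6.38 and 6.48 in null livers (-1.15 ± 0.15). Creb3l2, an ER-bound factor that activates genes of vesicle transport, differed by -1.21 ± 0.19, and Atf6 itself by -0.64 ± 0.16 (adjusted p = 0.0441). Atf6 lost its call without each of 9 arrays (adjusted p up to 0.17). Xbp1 was the gene that was higher: 12.49, 12.50 and 12.52 in control livers, 13.13, 12.97 and 13.09 in null livers, 0.56 ± 0.14. These arrays did not overlap, but the adjusted p of 0.0434 rose to 0.0566 without null replicate 2, and the call was lost without each of 9 arrays (up to 0.153). The probe set reads the total of spliced and unspliced forms, as far as the files tell.

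Of 21 tested target genes of XBP1 in the literature, 14 were lower (66.7%, against 3.23% of all genes) and 0 higher, and all 21 had a negative difference (median -1.10, -0.16 with vehicle). Members of ER entry were the most uniform, 7 of 7 lower. Sec24d, a cargo-selecting subunit of the COPII coat, whose window is printed above, read 12.12, 12.23 and 11.96 in control and 10.61, 10.88 and 10.58 in null livers (-1.41 ± 0.15, adjusted p = 3.7e-04). The null arrays were close to the vehicle range of 10.01 to 10.46. Edem2, a mannosidase-like protein of ER-associated degradation, differed by -1.69 ± 0.18 and Edem1, of the same family, by -0.72 ± 0.15. Edem1 lost its call without control replicate 1, control replicate 2 or null replicate 1 (adjusted p up to 0.0783). Dnajb9, the ER cochaperone ERdj4, read 12.97, 12.92 and 12.86 against 11.67, 12.53 and 11.44. Its high null value was again on the array with kidney transcripts. Its difference was -1.04 ± 0.26 (adjusted p = 0.0448) with all arrays and -1.36 (adjusted p = 0.0026) without that array, and the call was lost without each of 10 other arrays, with an adjusted p up to 0.153. Without null replicate 2 the list also held 14 lower genes.

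**Figure D4:**
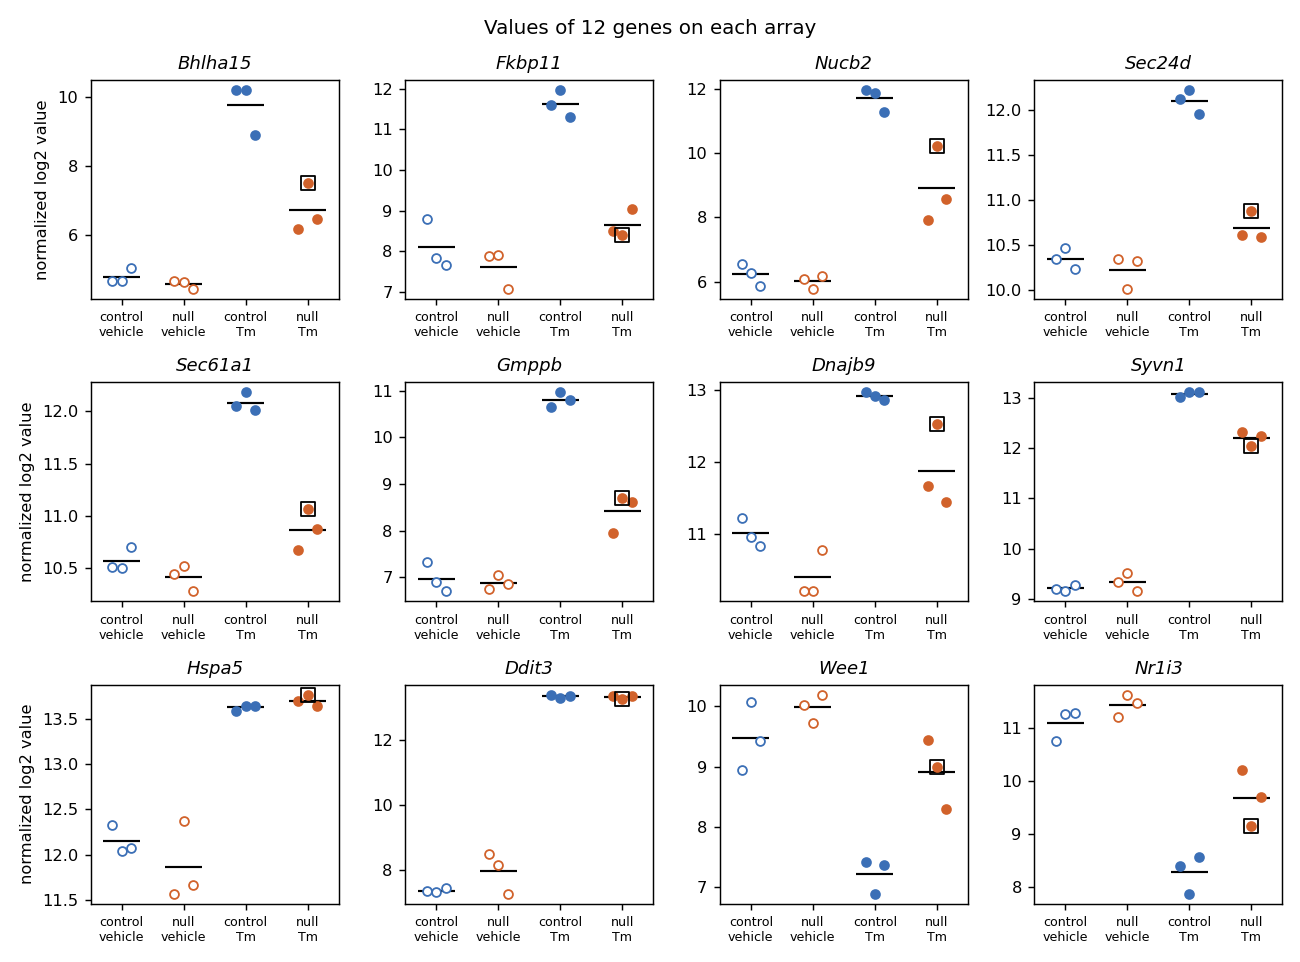
Quantile normalized log2 value of 12 genes on each of 12 arrays, by group (control in blue, null in orange, open points vehicle, filled points tunicamycin, Tm); bars are group means of 3 arrays, and the square marks null tunicamycin replicate 2, with kidney transcripts. Bhlha15, Fkbp11, Nucb2 and the next 5 panels lie lower in null than in control tunicamycin livers, Hspa5 and Ddit3 overlap between the genotypes, and Wee1 and Nr1i3 lie higher.

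Entry into the ER was the pathway with the largest share of lower genes, 18 of 25 tested (72%, against 3.23% of all genes). It had 0 higher genes (against 0.755%) and a median of -1.05, with the same counts without null replicate 2. All 4 subunits of the TRAP complex, which assists the translocon, 6 of 8 genes of signal recognition and 4 of 5 of the signal peptidase were lower. Sec61a1, the pore of the translocon, read 12.05, 12.18 and 12.01 in control and 10.67, 11.06 and 10.87 in null livers (-1.21 ± 0.14, adjusted p = 6.1e-04). Its vehicle values were 10.28 to 10.70, and only the lowest null tunicamycin array lay within that range. Over vehicle Sec61a1 rose by 1.51 in control livers and by 0.45 in null livers (limma adjusted p = 0.0455). Spcs3, a signal peptidase subunit, differed by -1.13 ± 0.13, Srp19, of the signal recognition particle, by -1.12 ± 0.13, and Tram1, a translocating chain protein, by -1.05 ± 0.12. Srprb, a subunit of the receptor for the signal recognition particle named after its values were seen, had the largest difference of the list, -1.98 ± 0.26.

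Transport between ER and Golgi gave 22 lower genes of 35 tested (62.9%, against 3.23% of all genes) and 0 higher (against 0.755%). The counts were again the same without null replicate 2. Of the COPI coat and its regulators 9 of 11 were lower, of COPII 7 of 13 and of cargo receptors 6 of 11. Tmed3, a p24 cargo receptor, was the lowest at 11.43, 11.64 and 11.54 against 9.13, 9.88 and 9.25 (-2.12 ± 0.20, 4.33-fold, adjusted p = 2.1e-04). Surf4, an export receptor for soluble cargo, read 11.59, 11.69 and 11.53 against 10.06, 10.55 and 10.30. Surf4 differed by -1.30 ± 0.14, and Cope, a COPI subunit, by -1.06 ± 0.13. Tunicamycin minus vehicle was -0.04 for Surf4 and -0.10 for Cope in null livers, not called by limma, while in control livers they rose by 1.10 and 0.86. Arfgap3, a regulator of COPI named after its values were seen, differed by -2.11 ± 0.38.

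N-glycosylation, the reaction that tunicamycin blocks at its first step, had 16 of 39 tested genes lower (41%, against 3.23% of all genes). It had 0 higher (against 0.755%) and a median of -0.61. Without null replicate 2 the count of lower genes was 15, and without control replicate 2 it was 10. The largest differences were in sugar supply. Gmppb and Gmppa, which make GDP-mannose, differed by -2.38 ± 0.22 and -1.78 ± 0.16. Gmppb read 10.65, 10.97 and 10.80 in control and 7.96, 8.69 and 8.62 in null livers, and its arrays were far from overlapping. Pgm3, of UDP-N-acetylglucosamine synthesis, differed by -2.24 ± 0.34, and Gmds, outside this list, which turns GDP-mannose towards GDP-fucose, by -2.50 ± 0.38. Dolpp1, a dolichyl pyrophosphate phosphatase, was 3.29-fold lower and Ostc, of the oligosaccharyltransferase, 3.11-fold lower. Rpn1, of the same complex, differed by -0.67 ± 0.13, and its call was lost without control replicate 2 (adjusted p = 0.0717).

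In ER-associated degradation 10 of 25 tested genes were lower (40%, against 3.23% of all genes) and 0 were higher (against 0.755%). The count of lower genes was 6 without null replicate 2 and 3 without control replicate 1 or control replicate 2. Syvn1, the ubiquitin ligase HRD1, read 13.01, 13.11 and 13.11 in control and 12.31, 12.05 and 12.24 in null livers (-0.87 ± 0.13). Even so its null values stood far above the vehicle range of 9.15 to 9.51. Edem3 differed by -0.88 ± 0.15.

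Of chaperones and folding enzymes 11 of 34 were lower (32.4%, against 3.23% of all genes) and 0 higher (against 0.755%). The count of lower genes was 7 without control replicate 2 or null replicate 1. The 6 general chaperones held 0 called genes, with differences from -0.53 to 0.15, whereas 6 of 10 disulfide isomerases were lower. Hspa5, which encodes BiP, the central ER chaperone, read 13.59, 13.65 and 13.65 in control and 13.70, 13.77 and 13.64 in null livers. The groups overlapped, at 0.07 ± 0.19 (adjusted p = 0.909). Hsp90b1, or GRP94, differed by 0.04 ± 0.11 (adjusted p = 0.924). Both lie near the top of the scale, with 0.137% and 0.151% of genes brighter in control livers, where arrays can saturate, and the effect of that was not tested. In contrast Txndc5, a disulfide isomerase whose window is printed above, read 11.43, 11.89 and 11.68 against 9.95, 9.80 and 9.97 (-1.76 ± 0.20, adjusted p = 5.4e-04). Fkbp14, a prolyl isomerase, differed by -1.72 ± 0.19 and Txndc11 by -1.25 ± 0.14. P4hb, the protein disulfide isomerase PDI, differed by -0.73 ± 0.14 and Ero1a, which oxidises it, by -0.90 ± 0.15, while Pdia6 was not called (-0.31 ± 0.28, adjusted p = 0.676). P4hb lost its call without control replicate 2 (adjusted p = 0.0637) and without null replicate 1.

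With the Gapdh ratio as a covariate limma called 432 of all 14568 genes lower. Under tunicamycin this ratio did not overlap between null and control arrays, so the fit cannot fully separate RNA quality from genotype. In it 13 of 21 XBP1 targets and 18 of 25 genes of ER entry were lower. The counts were 21 of 35 for ER to Golgi transport and 15 of 39 for N-glycosylation. They were 8 of 25 for degradation and 10 of 34 for folding. These lists share members, and the plot of list members gives them beside 12 others.

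**Figure D5:**
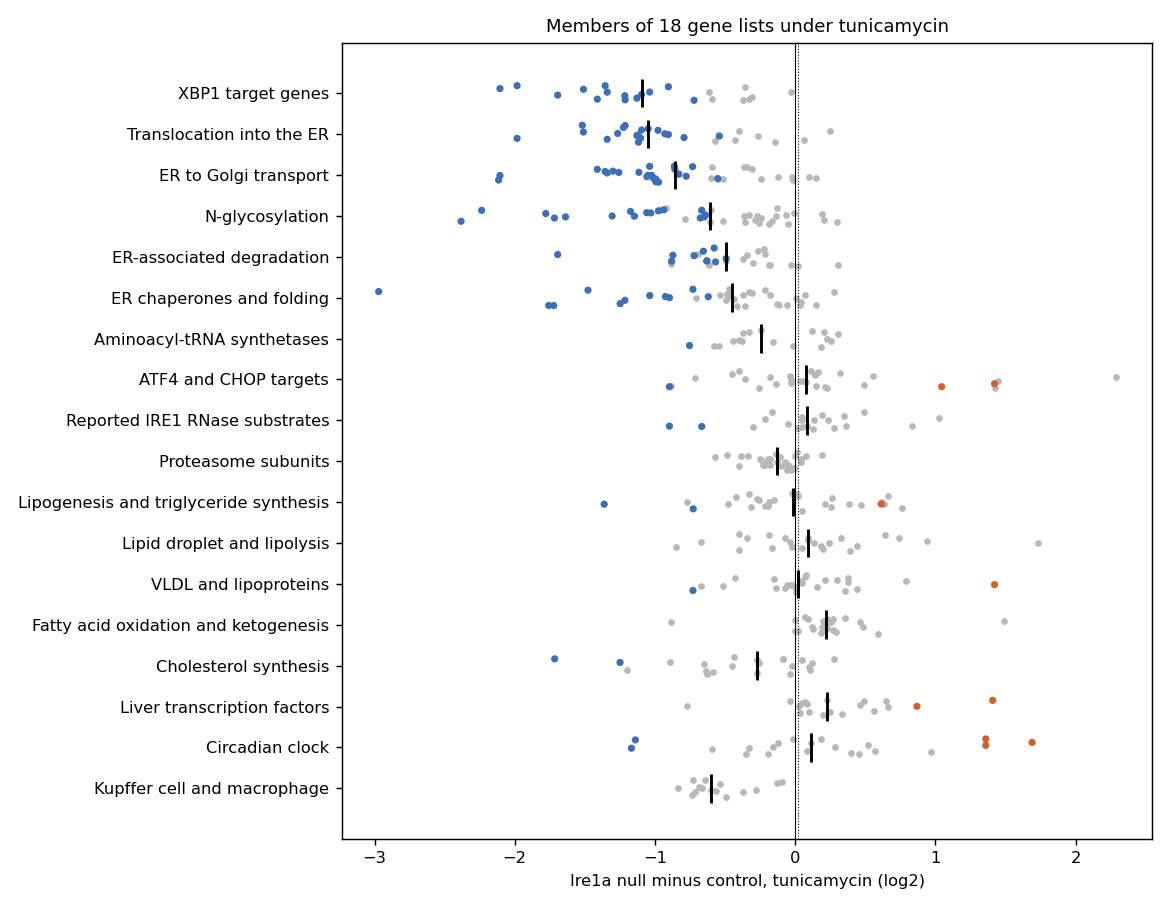
Null minus control difference under tunicamycin (log2) of each tested member of 18 gene lists; blue and orange points were called lower and higher, grey points were not called, black bars are list medians and the dotted line is the median of all genes, 0.02. The lists of the secretory pathway lie to the left, from a median of -1.10 for XBP1 targets to -0.45 for folding, the other 11 pathway lists have medians from -0.27 to 0.23, and Kupffer cell markers lie at -0.60 with 0 called.

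The PERK branch was read from the genes of ATF4 and CHOP. Of 29 tested, 1 was lower (3.45%, against 3.23% of all genes) and 2 were higher (6.9%, against 0.755%), with a median of 0.08. Ddit3, which encodes CHOP, read 13.41, 13.32 and 13.37 in control and 13.36, 13.28 and 13.37 in null livers, so the groups overlapped (-0.03 ± 0.24, adjusted p = 0.973). Ddit3 also lies near the top of the scale, with 0.371% of genes brighter in control livers, and whether saturation hid a difference was not tested. In both genotypes Ddit3 rose over vehicle, by 6.01 and 5.37. Atf4 differed by -0.35 ± 0.14 (adjusted p = 0.240) and Trib3, a pseudokinase induced by CHOP, by 0.17 ± 0.21 (adjusted p = 0.781). Sesn2, a stress-induced regulator of mTORC1, was higher (1.05 ± 0.21), a call lost without control replicate 2, control replicate 3 or null replicate 3 (adjusted p up to 0.0878). Of 17 cytosolic aminoacyl-tRNA synthetases Qars alone was called, lower at -0.75 ± 0.15 (5.88% of the list, against 3.23% of all genes). It lost the call without control replicate 2, null replicate 1 or null replicate 3 (adjusted p up to 0.0801).

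Of 21 tested transcripts reported as cut by IRE1, 0 were higher (0.755% of all genes were) and 2 were lower (9.52%, against 3.23%), Rpn1 and Ero1a, with a median of 0.08. Fgf21, a hormone induced by ER stress, read 10.19, 10.02 and 10.31 in control and 10.32, 8.34 and 9.73 in null livers. The low value was on the array with kidney transcripts, and the difference was -0.71 with and -0.15 without it, not called in either case.

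In lipogenesis and triglyceride synthesis 1 of 28 genes was higher (3.57%, against 0.755% of all genes) and 2 were lower (7.14%, against 3.23%), counts of 0 and 1 without null replicate 2. Fasn, fatty acid synthase, read 11.31, 11.12 and 11.16 in control and 10.29, 10.37 and 10.75 in null livers (-0.73 ± 0.17, adjusted p = 0.0391). Without null replicate 2 it missed the threshold (-0.67, adjusted p = 0.0978), as it did without each of 7 other arrays. Lpin3, a phosphatidate phosphatase, was lower by all arrays (-1.36 ± 0.25) and without that replicate (-1.24). Gpam, the first enzyme of glycerolipid synthesis, was higher by 0.61 ± 0.15 (adjusted p = 0.0372) but lost the call without each of 6 arrays, that replicate among them (adjusted p = 0.0726 without it, up to 0.175 without another). Scd1, Srebf1, Dgat2 and Plin2 differed by 0.26, 0.30, 0.05 and 0.05 and were not called.

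The 12 C/EBP and adipogenic factors had 0 called genes (3.99% of all genes were called) and a median of 0.39. Cebpa read 10.22, 10.68 and 11.08 in control and 11.77, 10.63 and 10.97 in null livers, with overlap (0.46 ± 0.29, adjusted p = 0.492), and Cebpb, Cebpd and Pparg differed by 0.55, -0.05 and 0.11. In cholesterol synthesis 2 of 22 were lower (9.09%, against 3.23% of all genes). The median of this list was -0.27 under tunicamycin and further down, at -0.56, with vehicle. Mvd, mevalonate decarboxylase, read 10.12, 10.40 and 10.55 against 8.30, 9.07 and 8.56 (-1.72 ± 0.23), and Stard4, a sterol carrier, differed by -1.25 ± 0.23. Stard4 missed the threshold without control replicate 2 (adjusted p = 0.0509). Lists of lipid droplets (24 tested), fatty acid oxidation (24) and phospholipid synthesis (18) had 0 called genes, and at the share of all genes, 3.99%, lists this short would hold few. For lipoproteins 1 of 26 was higher (3.85%, against 0.755% of all genes), Vldlr, the VLDL receptor. It read 8.79, 9.15 and 8.82 against 10.34, 10.64 and 10.04 (1.42 ± 0.34, adjusted p = 0.0366). It was not called without null replicate 2 (1.27, adjusted p = 0.0972) or without each of 6 other arrays. P4hb was the lower one (3.85%, against 3.23% of all genes). Mttp differed by 0.21 ± 0.19 and Apob by 0.16 ± 0.47, both not called.

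Of 19 liver transcription factors 2 were higher (10.5%, against 0.755% of all genes) and 0 lower, with a median of 0.23. Nr1i3, the xenobiotic receptor CAR, read 8.40, 7.87 and 8.56 in control and 10.21, 9.14 and 9.70 in null livers (1.41 ± 0.27, adjusted p = 0.0118). Its null arrays lay between the control tunicamycin arrays and the vehicle range of 10.76 to 11.63. Nr1h4, the bile acid receptor FXR, was higher by 0.87 ± 0.15. Nr1i3 missed the threshold without control replicate 2 (adjusted p = 0.0705). Cyp7a1, the rate-limiting enzyme of bile acid synthesis, differed by 0.48 ± 0.26 (adjusted p = 0.408). Of 34 cytochrome P450 genes 0 were called, against 3.99% of all genes.

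Of 21 clock genes 3 were higher (14.3%, against 0.755% of all genes) and 2 lower (9.52%, against 3.23%), and without null replicate 2 the counts were 3 and 0. Wee1, a cell cycle kinase under clock control, read 7.41, 6.89 and 7.36 against 9.45, 8.99 and 8.29 (1.69 ± 0.32, adjusted p = 0.0101). It missed the threshold without control replicate 2 (adjusted p = 0.0637). Hlf, a PAR-family clock output factor, read 7.67, 7.20 and 7.14 against 9.10, 8.40 and 8.58 (1.36 ± 0.20, adjusted p = 0.0024). Usp2 was the other higher gene (1.36 ± 0.32). Arntl, which encodes BMAL1, was lower (9.39, 9.13 and 8.71 against 7.55, 7.70 and 8.48, -1.17 ± 0.26), as was Noct, a clock-controlled gene named after its values were seen (-1.14 ± 0.27). Usp2, Arntl and Noct were not called without null replicate 2 (adjusted p = 0.0971, 0.0678 and 0.0594). Arntl also lost the call without control replicate 1, control replicate 2 or null replicate 1 (up to 0.111), and Usp2 without each of 7 arrays in all (up to 0.164). The labels do not state the time of day of the injections.

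The higher genes that follow are on none of the lists. Ak4, a mitochondrial adenylate kinase, read 8.73, 8.23 and 9.10 against 10.24, 10.50 and 10.03 (1.57 ± 0.26). 4833411C07Rik had the largest difference of the genes called higher, 1.85 ± 0.33, and Capn1, a calpain, was higher by 1.35 ± 0.24. Ngef was higher by 1.57, Akr1c19 by 1.54, Ptprf by 1.49, Ypel2 by 1.39 and Esrrg by 1.37. Car2, carbonic anhydrase 2, was at 10.58, 11.37 and 9.92 in null livers, highest on the array with kidney transcripts, against 9.09, 9.32 and 8.69 in control livers. The difference of Car2 was 1.59 ± 0.38 with all arrays and 1.21 (adjusted p = 0.103) without that one. Akr1c19, Ptprf, Ypel2 and Esrrg were also not called without it (adjusted p = 0.0507, 0.0727, 0.0771 and 0.0822), and Ngef missed the threshold without control replicate 2, control replicate 3 or null replicate 1 (adjusted p up to 0.0813). In all the call was lost without each of 4 arrays for Akr1c19, 7 for Car2, 8 for Ptprf and Esrrg and 9 for Ypel2, with an adjusted p up to 0.163. Esrrg moved to 2.67 without null replicate 3 and to 2.20 without control replicate 3.

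The brightest probe set stood for each gene. When all probe sets of a gene were averaged, several calls were lost. Capn1 then differed by 0.57 (adjusted p = 0.0943), Bid by 0.56 (adjusted p = 0.0969), Sesn2 by 0.62 (adjusted p = 0.0741), Vldlr by 0.79 (adjusted p = 0.26), Arntl by -0.54 (adjusted p = 0.0858) and Gpam by 0.08 (adjusted p = 0.934). Xbp1, Ptprf, Ypel2, Acot2 and Edem3 also lost the call with limma, at adjusted p = 0.108, 0.0636, 0.105, 0.0623 and 0.0928. The calls of Wee1 (1.00), Ak4 (0.88), Edem2 (-0.80), Fkbp14 (-0.79), Tram1 (-0.70) and Fkbp11 (-1.10) were kept at these smaller values. Capn1 also missed the threshold when the fit held only the groups compared (adjusted p = 0.0667). With a pseudocount of 64 the differences of 4833411C07Rik and Chek1 were 1.17 and -1.12, both still called.

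Stress and death lists outside the ER gave single calls. Over all genes 3.23% were lower and 0.755% higher, so 1 call says little about a list of this size. Bid, a BH3-only protein that links death receptors to mitochondria, was the 1 higher gene of 22 BCL2 family and receptor genes, at 8.04, 7.96 and 8.08 in control and 9.03, 9.19 and 8.89 in null livers (1.01 ± 0.14, adjusted p = 0.0015). In control livers Bid fell with tunicamycin by 0.96, and in null livers its change was 0.20. Bag3, a cochaperone of HSP70, was the 1 lower gene of 19 heat shock genes (-1.62 ± 0.26), Ccne2 of 19 proliferation genes (-1.61 ± 0.31) and Slc11a2, an iron transporter, of 20 iron and zinc genes (-1.34 ± 0.26). Ccne2 lost its call without control replicate 1 (adjusted p = 0.0571) and Slc11a2 without control replicate 2 (adjusted p = 0.0637). Chek1, the checkpoint kinase, differed by -1.80 ± 0.27. Dusp6, Gclc and Iigp1 were the single higher genes of the immediate-early, NRF2 and interferon lists, and Acot2 of the acyl-CoA thioesterases, and none of these 4 was called without null replicate 2 (adjusted p = 0.0658, 0.106, 0.0682 and 0.0634). Dusp6 lost the call without each of 6 arrays and the other 3 without each of 10, with an adjusted p up to 0.226. Got1, an aspartate aminotransferase, was the 1 lower of 21 urea cycle and amino acid genes (-0.95 ± 0.21), a call lost without any 1 control replicate and without null replicate 1 (adjusted p up to 0.122).

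Lists of secreted liver proteins and housekeeping machinery had 0 called genes: complement and coagulation (36 tested), acute phase (32), hormones (19), glucose metabolism (22), the proteasome (31), ribosomal proteins (30), the respiratory chain (38) and autophagy (26). Over all genes 3.99% were called, so lists of this size would hold few. The median was -0.13 for the proteasome and 0.17 for the respiratory chain, where 13 of 38 genes had all null arrays above the control arrays, against 10.2% of all genes. Without null replicate 2 the median of the respiratory chain was 0.098. Alb, albumin, differed by 0.13 ± 0.12. It too lies near the top of the scale, with 0.0755% of genes brighter in control livers, and whether saturation hid a difference was not tested.

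Markers of other cell types were not called in any list, against 3.99% of all genes. The 15 Kupffer cell and macrophage markers all had a negative difference, with a median of -0.60 and of -0.38 with vehicle, and their summed level was 5513 to 11392 in null and 9799 to 12451 in control tunicamycin livers. These ranges overlapped. In whole tissue, fewer cells of a type and less RNA per cell cannot be told apart, and the part of such shifts in the gene differences was not tested. Endothelial, stellate, bile duct and lymphocyte markers had medians of -0.09, 0.24, 0.01 and 0.05.

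Whether the genotype difference depended on stress was asked with the interaction term, the difference under tunicamycin minus that with vehicle. It was called for 122 genes (0.837%), 120 lower (0.824%) and 2 higher (0.0137%). The higher ones were Bid and Arhgef2, a guanine nucleotide exchange factor. Arhgef2 read 6.93, 6.98 and 6.69 in control and 7.96, 8.20 and 8.61 in null livers under tunicamycin (1.39 ± 0.17). Without any 1 of the null tunicamycin replicates another Arhgef2 probe set was the brightest, and the call was lost, with 0.72 (adjusted p = 0.0664) without replicate 2 and a highest adjusted p of 0.129. Of the secretory lists 7 of 21 XBP1 targets, 6 of 25 genes of ER entry, 5 of 35 of ER to Golgi transport and 5 of 39 of N-glycosylation had a called interaction. The count of lower genes in the interaction over all genes moved with single arrays: leaving out 1 array gave 14 to 122 lower genes, with 14 without control tunicamycin replicate 2, 31 without control tunicamycin replicate 1, 35 without null vehicle replicate 1, 40 without control vehicle replicate 3, 43 without null vehicle replicate 3 and 42 without null tunicamycin replicate 1. It was 62 and 63 without control vehicle replicates 1 and 2, and 68 without null tunicamycin replicate 3. For the difference under tunicamycin itself, 252 genes were lower and 27 higher without control replicate 2, 301 and 46 without control replicate 1, 312 and 36 without null replicate 1, and 351 and 59 without control replicate 3.

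Side by side, the lower genes reached their levels in different ways. Over all genes 11.6% rose and 13.3% fell with tunicamycin in control livers, and 7.59% rose and 9.23% fell in null livers. Bhlha15 rose with tunicamycin by 4.98 in control and by 2.14 in null livers, Tspyl2 by 4.90 and 2.30, and Nucb2 by 5.48 and 2.90. In null livers Edem2 (-0.25), Pgm3 (-0.70), Dolpp1 (0.15) and Hapln4 (0.30) were not called against vehicle, while in control livers they rose by 1.34, 1.78, 1.75 and 2.43. Fkbp14 rose by 1.13 in control livers and fell by 0.60 in null livers. These comparisons share arrays with the genotype difference, so they restate it and are no further support.

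With vehicle limma called 0 of these genes. Of the 471 lower genes 283 (60.1%) had a negative difference with vehicle, against 50.3% of all genes, with a median of -0.06, and 48 had all null vehicle arrays below the control arrays (4.41% of all genes did). Of the 110 higher genes 82 (74.5%) had a positive one, against 49.7%, with a median of 0.14, and 18 had all null vehicle arrays above (3.75% of all genes). The vehicle and tunicamycin comparisons share no arrays.

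Near Ern1 on its chromosome, 31 of the 40 nearest genes, 20 on either side, were tested. Their median difference was -0.03, with 1 gene lower, Map3k3 (-0.69 ± 0.14), and 1 higher, Limd2 (1.15 ± 0.25), both named after their values were seen. Over all genes 3.23% were lower and 0.755% higher.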

How the data were processed

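Total RNA from 12 mouse livers was hybridised as biotin-labelled cRNA to Affymetrix arrays with 45101 probe sets, per the labels' protocols, and the authors deposited 1 linear intensity per probe set and array. How probe intensities were summarised and scaled is not stated in the labels. The trimmed mean intensity of an array was 228 to 303, and the number of arrays, 3 per group, limits the precision. Intensities plus a pseudocount of 16 were taken as log2 and quantile normalized over all 12 arrays. Left out were 64 control probe sets, probe sets with several (932) or no (9160) symbols in the platform annotation, and the dimmest 30%. The brightest probe set stood for a gene. Of 34945 probe sets with 1 symbol, 34741 matched RefSeq by gene ID.

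One limma fit of the 4 groups (limma 3.58.1, R 4.3.3, 8 residual degrees of freedom) gave the genotype differences and their interaction, with Benjamini-Hochberg adjustment over all genes. The fit was run on simulated data, with probe sets drawn independently and no array with kidney transcripts. That run does not show how the fit handles such an array. Summed marker levels are normalized values brought back to the linear scale. Figures and promoter motifs used Python 3.11.15, pandas 2.3.3 and matplotlib 3.10.9. Named genes were Ern1 and a set of stress, lipid and liver genes given whether called or not, the 15 largest falls and rises among called genes whose arrays did not overlap, the first 10 each way without null tunicamycin replicate 2, up to 4 called members of each list by smallest p (up to 2 where none was called), and the 10 largest called interaction terms each way. Names outside this rule are said to be chosen after their values were seen. The members and lists were chosen with earlier results of these data known.

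Deviations of same-numbered null and control arrays correlated at 0.0993, 0.0901 and -0.0462 with tunicamycin and at -0.211, -0.410 and -0.110 with vehicle. With 3 arrays per group these values cannot show whether the replicate numbers mark a pairing or a batch. The main fit takes the arrays as unpaired. P-values and standard errors of the limma fit rest on the spread of these samples within all 4 groups. Alternatives were other pseudocounts, filters, normalizations, probe set rules, eBayes options, array weights, covariates, a replicate block, fewer arrays in the fit and leaving out each array.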

Additional observations from a re-analysis of the deposited data

Results flagged for a closer look

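The interaction test of limma called 120 genes whose null minus control difference was lower under tunicamycin than with vehicle and 2 for which it was higher. Among the named genes with a called interaction, the largest negative terms belonged to Bhlha15 (-2.84), Zfp9 (-2.77), Nde1 (-2.74), Tspyl2 (-2.60), Chek1 (-2.58), Fkbp11 (-2.49), Ccdc149 (-2.48), Pgm3 (-2.48), Slc17a9 (-2.46) and Mxd1 (-2.35). Chek1 and Mxd1 had positive differences with vehicle, 0.77 and 0.58, and lower levels in null livers under tunicamycin. The tunicamycin difference of Slc17a9, -2.35, depended on single arrays. It was -2.52 to -1.02 with 1 array left out and was called each time. The sugar nucleotide and glycosylation genes Gmppb, Gmppa and Dolpp1 had terms of -2.29, -1.68 and -1.60. Gnat2 (-2.29), 6430548M08Rik (-2.29), Sgsm1 (-2.14) and Hapln4 (-2.13) are not on any secretory list. Folding enzymes followed, with Fkbp14 at -1.73, Txndc5 at -1.36 and Txndc11 at -1.12.

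In degradation the terms of Edem2 and Syvn1 were -1.58 and -0.99. In transport between ER and Golgi they were -1.48 for Tmed3, -1.29 for Sec24d, -1.13 for Surf4 and -0.95 for Cope. In entry into the ER they were -1.05 for Sec61a1, -1.01 for Srp19 and -0.83 for Tram1. Bid (1.16) and Arhgef2 (1.51) were the genes whose term was positive. Among all 31 genes the adjusted p of the interaction ran from 0.000604 to 0.0493.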

How the results depend on the processing

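Genes named after their values were seen were left out of the next counts. Of the 78 other called genes named, 42 kept direction and call under every alternative run and 35 lost the call under at least 1. The last 1, Fkbp11, changed direction, at 0.28 without _x_at and _s_at probe sets. Among the genes left out of these counts, Wnt5a changed direction and Noct, Ufsp2 and Slc35b1 lost the call without null replicate 2. Without each of the 12 arrays in turn 48 of the 78 kept the call. The count of genes higher under tunicamycin was 27 to 121 and of genes lower 252 to 476 without 1 array, and array weights moved them to 488 and 796, a share of 62.0% lower against 81.1%. A 2-fold minimum left 40 and 253, and a fit of only the groups compared called 39 higher genes and, with vehicle, 1 lower. With the replicate block, for numbers whose meaning is not known here, 72 genes were higher and 368 lower. In that fit 1 was higher with vehicle, and the interaction gave 1 higher and 58 lower. The interaction's lower count was 14 to 122 and its higher count 0 to 4 without 1 array. The lower count was 69 with a pseudocount of 1, 182 with 64 (4 higher), 79 on the deposited scale, 63 with the actin ratio and 214 (11 higher) with array weights. The higher count was 4 with the dimmest 50% left out, with a trended robust eBayes and with the Gapdh ratio, and 1 without _x_at and _s_at probe sets. On the gene strand alone the XBP1 core was in 6.54% of windows of lower genes. List medians moved for the sensors to -0.14 with array medians centred, 0.027 with array weights, 0.043 in the tunicamycin arrays without null replicate 2, and -0.12 to 0.043 without 1 array. With array medians centred they were -0.52 for chaperones, -0.59 for degradation, -0.12 for lipogenesis, -0.063 for lipoproteins, -0.23 for the proteasome and 0.064 for the respiratory chain. With the Gapdh ratio they were -0.36 for chaperones and -0.42 for cholesterol synthesis. For degradation the median was -0.66 with the mean of probe sets, -0.57 without _x_at and _s_at, and -0.59 to -0.45 without 1 array. Without 1 array it was -0.61 to -0.45 for N-glycosylation, -0.17 to 0.043 for lipogenesis and 0.098 to 0.19 for the respiratory chain, which was also 0.098 in the tunicamycin arrays without null replicate 2. Over the 39 lists 59 of 1053 medians moved by more than their spread. Uncalled genes near 0 changed sign. Ern1 was -0.017 with medians centred, -0.068 with the mean of probe sets and -0.12 to 0.36 without 1 array. Hsp90b1 was -0.040 with medians centred, -0.00069 on the deposited scale and -0.18 with the mean of probe sets, and Ddit3 0.040 with that mean and 0.0028 with weights. Cebpd was 0.0047 with the mean of probe sets, 0.030 with weights, -0.13 to 0.051 without 1 array and 0.051 in the tunicamycin arrays without null replicate 2. Pparg was -0.058 with the Gapdh ratio and -0.074 to 0.28 without 1 array, Dgat2 -0.022 and Plin2 -0.048 with medians centred, and Plin2 -0.0096 on the deposited scale. Apob was -0.43 to 0.64 without 1 array. The cause of these changes was not tested.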

Other observations

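Several further gene groups were put together after their values had been seen, and their counts are a description only. The shares over all genes, to be set beside each count, were 3.23% lower and 0.755% higher. Of 7 tested genes of UFM1 conjugation, a ubiquitin-like modification that acts on ribosomes at the ER, 4 were lower in null livers under tunicamycin and 0 higher by limma (median -0.91, -0.15 with vehicle), and 3 were lower without null replicate 2. The modifier Ufm1 read 10.48, 10.45 and 9.90 in control and 8.68, 8.46 and 8.79 in null livers, without overlap (-1.63 ± 0.20). Its ligase Ufl1 differed by -1.32 ± 0.20 and the ligase partner Cdk5rap3 by -1.10 ± 0.14. The protease Ufsp2 differed by -0.54 and was not called without that replicate (adjusted p = 0.115).

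Of 22 SNAREs and tethers between ER and Golgi 10 were lower and 0 higher (median -0.74), 12 without null replicate 2. The SNARE Bet1 read 11.21, 11.29 and 10.98 in control and 9.41, 9.68 and 9.08 in null livers, and Sec22b and Stx5a differed by -1.42 ± 0.16 and -1.40 ± 0.13.

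Of 23 zinc transporters the 3 lower ones were Slc30a5 (-1.43 ± 0.17), Slc30a7 (-1.31 ± 0.22) and Slc39a7 (-1.30 ± 0.21), carriers of the early secretory pathway, and 0 were higher. Of 15 nucleotide sugar transporters 3 were lower, among them Slc35b1 (-0.67 ± 0.15, adjusted p = 0.0787 without null replicate 2). Of 34 genes of DNA replication and repair 5 were lower and 0 higher, with a median of -0.16.

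Ppargc1b, a coactivator of mitochondrial genes, differed by 1.39 (adjusted p = 0.135) with all arrays and by 1.90 (adjusted p = 0.0205) without null replicate 2, and Ppargc1a by 1.49 (adjusted p = 0.147) and 0.67 (adjusted p = 0.284).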
